A study of Mus musculus with 3 samples.

Results

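Collagen-producing fibroblasts of mouse skin were taken from the 2 skin libraries as cells that held the transcripts of this lineage and lacked those of its neighbours. A cell was a member if it had UMIs (unique molecular identifiers, each counting 1 captured transcript) of at least 3 of Col1a1, Col1a2, Col3a1, Dcn, Lum and Pdgfra. It also had to have 0 UMIs of Ptprc (leukocytes), Krt5 and Krt14 (keratinocytes), Pecam1 (endothelium) and Rgs5 (pericytes), and UMIs of at most 1 of Slc26a7, Pappa2, Igfbp3, Prlr, Tnn and Dkk2, which mark another stromal population. Only barcodes with 200 or more genes detected and no more than 20% of UMIs from mitochondrial genes were considered. The rule found 377 members among 25791 kept skin cells, 175 of 12723 in control and 202 of 13068 in RHS, out of 31024 barcodes in the whole series.

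Fibroblasts build the dermis. They secrete fibrillar collagens, which are trimmed, hydroxylated and cross-linked outside and inside the cell, together with proteoglycans such as decorin and lumican that space the fibrils. Papillary fibroblasts lie under the epidermis and are known for Wnt pathway genes, while reticular and adventitial fibroblasts lie deeper and around vessels and are known for complement, chemokine and Ly6a, Pi16 or Dpp4 expression. In inflamed skin fibroblasts are a known source of CCL11, the eosinophil attractant also called eotaxin, and of the alarmin IL-33.

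The study concerns a sympathetic nerve and eosinophil axis in stressed mice. Skin of the control group came from mice treated with MC903 (calcipotriol, a vitamin D analogue that produces dermatitis resembling atopic eczema), and skin of the RHS group from mice given RHS together with MC903, so that both groups carried the MC903 treatment. The labels do not expand RHS, and the sources used here do not give strain, age, sex or the number of mice in each skin library. The library from sympathetic ganglia was not analysed here beyond its number of barcodes. Each skin group was 1 library of cells selected with CD45 beads and captured in BD Rhapsody microwells, labelled as immune cells, and the fibroblasts are therefore cells that passed this selection without UMIs of Ptprc, the gene of CD45. No replicate check of any difference was possible with 1 library a group. No test was run, and the 95% intervals given with levels, shares and ratios cover counting error only.

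The members held 705736 UMIs (control) and 775597 UMIs (RHS). The median member had 3215 UMIs, 1520 genes and 4.39% mitochondrial UMIs in control, and 3263 UMIs, 1414 genes and 2.86% mitochondrial UMIs in RHS. The libraries shared 5 cell barcodes, none of them a member. Levels are CPM, a gene's UMIs scaled to the total UMIs of the cells in question. Ratios are RHS over control throughout, so that a value under 1 is lower in RHS.

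The genes of the rule were checked with markers outside it. The other fibroblast markers were present in both libraries: Dpt (dermatopontin, a collagen-binding protein), Mfap5, Fbln1, Serping1, Cygb and Pcolce had 967, 117, 201, 1078, 97 and 217 UMIs in control and 1309, 225, 297, 2018, 190 and 212 in RHS. These 6 together reached 3793 CPM in control and 5481 CPM in RHS members, against 99.5 and 85.5 CPM in all other kept skin cells. Markers of T cells, keratinocytes and endothelium that the rule did not use were low: 10 T cell markers summed to 24 and 36 UMIs, 9 keratinocyte markers to 46 and 37, and 9 endothelial markers to 17 and 46. Myeloid transcripts were not at 0. The 12 macrophage and monocyte markers were all detected, at 2235 CPM in control and 2913 CPM in RHS, led by Lyz2 (lysozyme) with 664 and 1291 UMIs. Free RNA released by other cells was estimated from 9 leukocyte markers other than Ptprc. If all their UMIs in members were free RNA, it would make up 17.7% (control) and 19.0% (RHS) of member UMIs. The true share was not determined. After subtraction 475 genes were at least 1.5-fold higher in RHS and 760 lower, with intervals that left out 1.

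**Figure D1:**
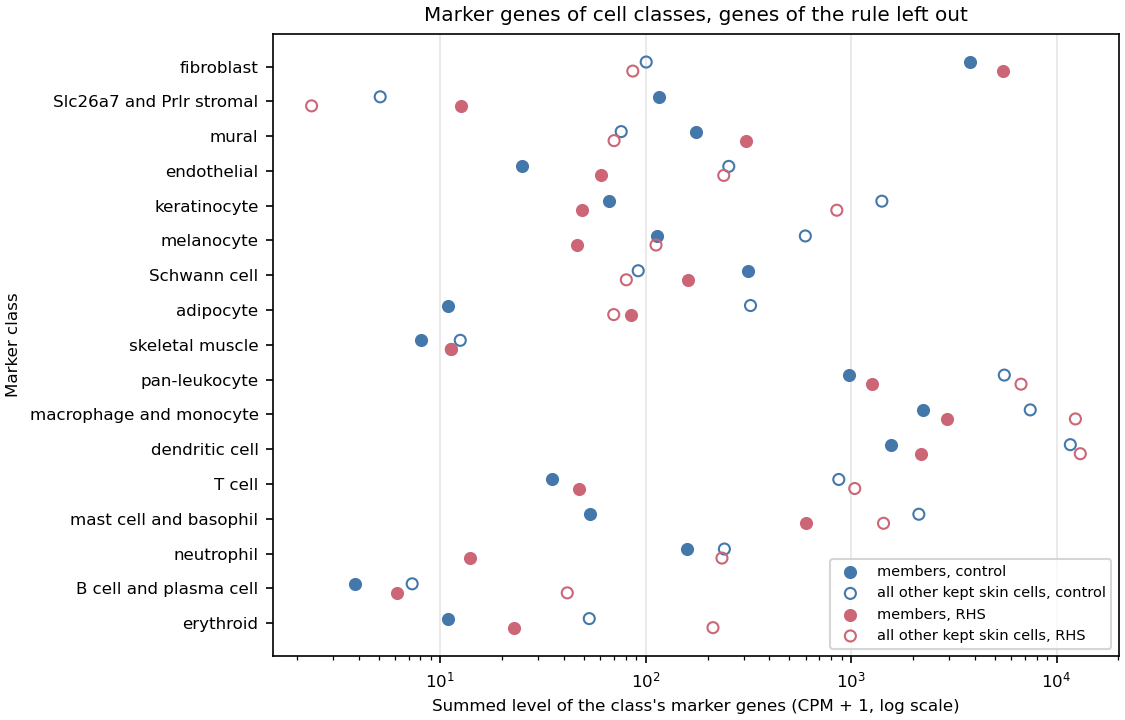
Summed level of the marker genes of 17 cell classes, without any gene of the rule (x axis, CPM + 1, log scale), in the 377 members (filled points) and in all other kept skin cells (open points), for the control and RHS libraries. Fibroblast markers outside the rule stand at 3793 and 5481 CPM in members against 99.5 and 85.5 CPM elsewhere, while the macrophage and dendritic cell markers are lower in members than elsewhere but not at 0. Schwann cell and mural markers are higher in members than elsewhere.

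Members differed in how firmly they met the rule. UMIs of exactly 3 of the 6 genes were found in 56 control and 41 RHS members, of 4 in 48 and 32, of 5 in 33 and 64, and of all 6 in 38 and 65. The 6 genes made up a median of 0.323% (control) and 0.363% (RHS) of the UMIs of members with 3 of them, and 6.47% and 6.61% in members with all 6. Just outside the rule, 101 control and 94 RHS cells had UMIs of exactly 2 of the genes, which made up 0.135% and 0.0972% of their UMIs. Sparc, a collagen chaperone of the matrix, stood at 2845 and 1861 CPM in members with 3 of the genes, at 18319 and 15852 CPM in members with 6 and at 1028 and 638 CPM just outside. Lyz2 ran the other way, at 3018 and 7740 CPM in members with 3, 32.8 and 116 CPM in members with 6, and 3772 and 10473 CPM just outside. The rule's edge thus held cells with few fibroblast and many myeloid transcripts.

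Members were 1.38% (1.18 to 1.59%) of kept cells in control and 1.55% (1.34 to 1.77%) in RHS, a ratio of 1.12 (0.913 to 1.38). These are shares of captured cells after bead selection. The neighbouring stromal cells, which met the same collagen rule but held at least 2 of the 6 stromal genes, numbered 128 in control and 43 in RHS. When no limit was set on those genes the ratio of shares was 0.787, so its direction depended on that limit. Mural cells (Rgs5 with another pericyte marker) numbered 98 and 156.

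Outside the rule, the 20 genes that stood highest over all other kept cells in both libraries were mostly matrix genes. They were, in order, Mmp2, Coch, Igfbp5, Mmp3, Dpt, Fmod, Col5a2, Ogn, Sparc, Col6a2, Ptx3, Col6a1, Serping1, Col5a1, Dpep1, Fstl1, Thbs2, Adamts2, C4b and Gfpt2. Mmp2, a gelatinase, was at 1254 CPM in control and 1699 CPM in RHS members, 57.7 and 71.1 times the level of the other cells after adding 10 CPM to both. In T cells of the same libraries, which should lack it, it was at 0.996 and 6.29 CPM. Col6a2, a chain of beaded collagen VI, was at 2491 and 2272 CPM in members, 1995 and 1281 CPM in the neighbouring stromal cells and 1107 and 1009 CPM in mural cells. C4b, a complement component, separated these populations more, at 1074 and 1657 CPM in members, 31.0 and 388 CPM in the stromal cells and 30.2 and 20.3 CPM in mural cells. Members were chosen on their transcripts, and these levels describe them without a test.

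Clustering without the rule's genes divided the 377 members into 6 sub-clusters, and the 2 libraries were divided among them unequally. Sub-cluster 1 held 37 control and 90 RHS members, sub-cluster 2 held 77 and 18, sub-cluster 3 held 9 and 40, sub-cluster 4 held 21 and 25, sub-cluster 5 held 17 and 20, and sub-cluster 6 held 14 and 9. The genes that define the sub-clusters also differ between the libraries, so the numbers are a description and are not read as a change in abundance. With 1 library a group, a sub-cluster mostly of 1 library cannot be told apart from a property of that library. Against a coarser division (5 sub-clusters) the adjusted Rand index, which is 1 for identical divisions, was 0.766, and against a finer one (8 sub-clusters) it was 0.717. Clustering the control library on its own gave 0.785 and the RHS library on its own 0.587.

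**Figure D2:**
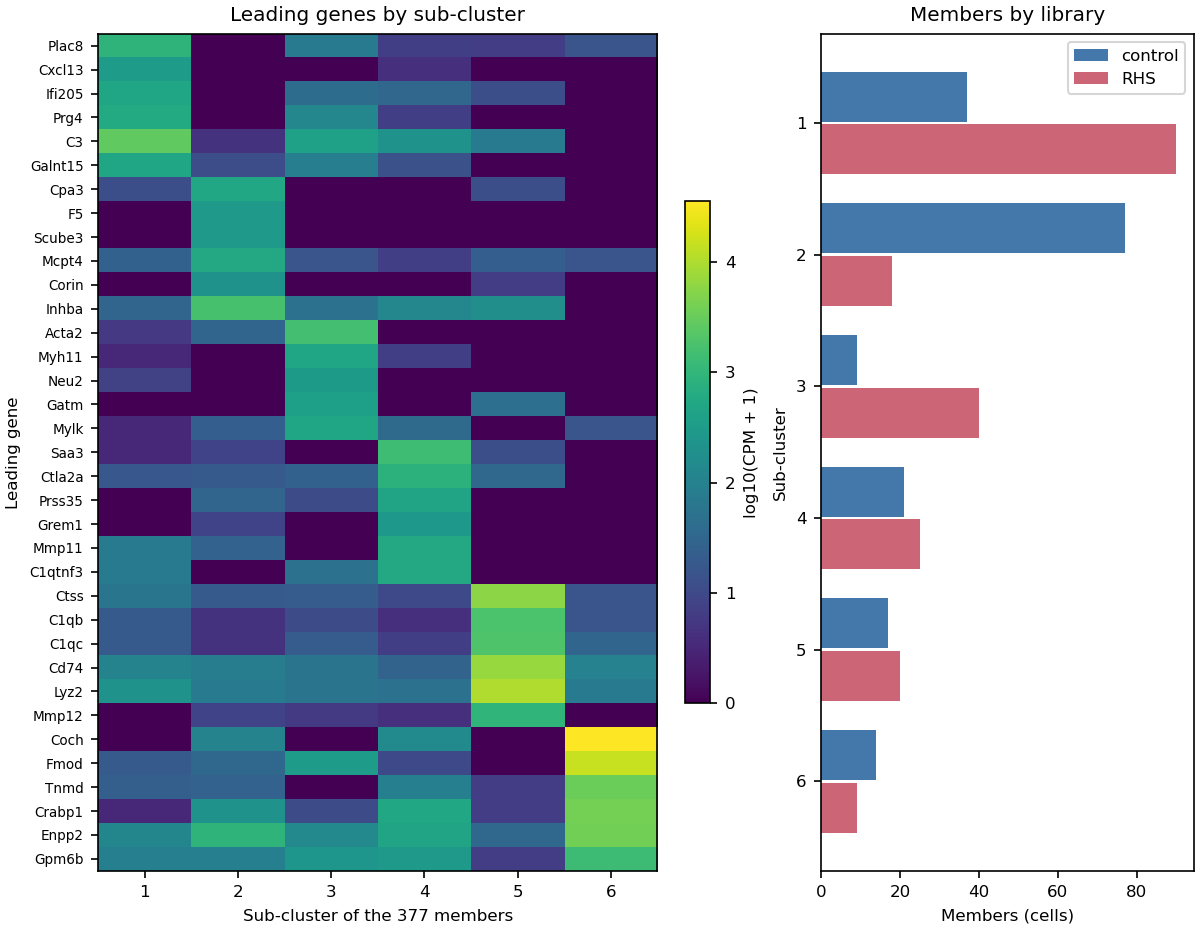
Left, level of leading genes of each sub-cluster (colour, log10(CPM + 1)) in the 6 sub-clusters of the members. Right, members of each sub-cluster by library (cells): sub-cluster 1 has 37 control and 90 RHS members and sub-cluster 2 has 77 and 18.

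Sub-cluster 1 carried the adventitial and reticular genes. Their 24 genes summed to 29281 CPM there, against 21204 CPM in sub-cluster 3 and 1294 CPM in sub-cluster 2, and the complement genes to 15397 against 700 CPM. Its leading genes were Plac8, in 95 of 127 cells, Cxcl13 (the B cell attractant), in 24 cells, Ifi205, Prg4 (lubricin), C3 (the central complement component), in 112 cells, and Galnt15. Dcn was at 10975 CPM there and at 397 CPM in sub-cluster 2. Il6, the pleiotropic cytokine, was at 1131 CPM in sub-cluster 1, 1442 CPM in sub-cluster 3 and 40.1 CPM in sub-cluster 2.

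Promoters are shown for Cxcl13 and C3, leading genes of sub-cluster 1, and for Il6, which was higher in sub-cluster 3 than in sub-cluster 1. NF-kB, a main inflammatory transcription factor, is known to act on such inflammatory genes. The sequences are the 250 bases before the RefSeq start (GRCm38.p6), 5′ to 3′, with capitals marking matches to GGGANNNNCC on either strand. Overlapping matches run together in the capitals. They lie at chr5:30012864-30013113 (plus strand) for Il6, chr5:95956689-95956938 (plus strand) for Cxcl13 and chr17:57228137-57228386 (minus strand) for C3.
Il6: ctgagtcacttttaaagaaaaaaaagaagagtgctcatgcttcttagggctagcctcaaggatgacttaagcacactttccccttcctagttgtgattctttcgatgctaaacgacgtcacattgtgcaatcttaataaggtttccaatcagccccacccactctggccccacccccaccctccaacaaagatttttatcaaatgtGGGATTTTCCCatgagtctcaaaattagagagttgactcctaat
Cxcl13: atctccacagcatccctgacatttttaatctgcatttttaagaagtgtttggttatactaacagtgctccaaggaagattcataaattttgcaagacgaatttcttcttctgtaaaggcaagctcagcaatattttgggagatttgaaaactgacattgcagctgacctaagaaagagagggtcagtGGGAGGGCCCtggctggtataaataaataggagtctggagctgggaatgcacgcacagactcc
C3: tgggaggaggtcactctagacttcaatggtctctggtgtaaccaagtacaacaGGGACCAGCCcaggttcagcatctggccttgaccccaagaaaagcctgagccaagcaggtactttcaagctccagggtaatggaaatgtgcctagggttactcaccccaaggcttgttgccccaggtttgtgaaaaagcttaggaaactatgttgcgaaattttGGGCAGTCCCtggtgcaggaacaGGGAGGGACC
Il6 held 2 overlapping matches, from 44 to 34 bases before the start, Cxcl13 held 1 and C3 held 3. The motif was present in 17.3% of 27025 mouse promoter windows of this length, 1 window a gene, and a match describes the letters and is not evidence of binding.

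Sub-cluster 2 held more papillary and Wnt pathway transcripts than sub-cluster 1. The papillary dermis genes summed to 3470 CPM in sub-cluster 2, 1016 CPM in sub-cluster 1 and 7532 CPM in sub-cluster 6, and the Wnt pathway genes to 3054, 1391 and 3312 CPM. These levels were not particular to sub-cluster 2. In the neighbouring stromal cells of control and RHS the papillary genes summed to 3366.5 and 3474 CPM. The Wnt pathway genes summed to 3284 and 4250 CPM in those cells. The leading genes of sub-cluster 2 were F5, Scube3, Corin (a protease of the dermal papilla), in 23 of 95 cells, and Inhba (the activin A subunit), in 59 cells at 1691 CPM. Cpa3 and Mcpt4, mast cell proteases, also led it, but 143 of 145 Cpa3 UMIs and 148 of 151 Mcpt4 UMIs lay in 1 cell. Inhba, Scube3 and F5 were also present in the neighbouring stromal cells of the control library, at 1788, 530 and 450 CPM.

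Among the leading genes of sub-cluster 3 were some held by few of its 49 cells: Acta2 and Myh11 (smooth muscle contractile genes) in 9 and 3 cells, Neu2 in 1, Gatm in 7 and Mylk in 13. Mgp, the matrix Gla protein that inhibits calcification, was at 6820 CPM there and 1423 CPM in sub-cluster 1. The 8 Schwann cell markers summed to 1229 CPM in sub-cluster 3 and 207 CPM in sub-cluster 1. Sub-cluster 4 held the most collagen: Col1a1 was at 73540 CPM and Col3a1 at 26513 CPM, against 28844 and 8298 CPM in sub-cluster 1, in cells with a median of 7611.5 UMIs. Its leading genes were Saa3, an acute-phase protein found in 8 of 46 cells, Ctla2a, Prss35, Grem1 (a BMP antagonist), Mmp11 (a stromelysin), in 24 cells, and C1qtnf3. Sub-cluster 6 was the most uniform, with Coch (cochlin), Fmod (fibromodulin), Tnmd (tenomodulin), Crabp1 and Enpp2 in 23 of 23 cells. Coch and Fmod were at 35666 and 15063 CPM there, against 55.9 and 58.7 CPM in the other members.

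Sub-cluster 5 went against the label. Its leading genes were Ctss, C1qb, C1qc, Cd74, Lyz2 and Mmp12, all known from macrophages or antigen-presenting cells. The 6 rule genes summed to 1058 CPM there, against 14801 to 147141 CPM in the other sub-clusters. The 9 leukocyte markers other than Ptprc summed to 7279 CPM, against at most 425 CPM elsewhere, and 35 of its 37 cells held at least 3 of those markers. Over all members, 25 in control (14.3%) and 26 in RHS (12.9%) held at least 3, and a doublet caller (Scrublet) marked 0 members. The comparisons that follow were repeated without sub-cluster 5, and because the members hold this sub-cluster and an unequal mix of the others, ratios are also given within sub-clusters 1, 2 and 4. Some ratios within sub-clusters 3 and 6 are given too. Single cells can weigh heavily in ratios with few cells on 1 side. Sub-cluster 3 had 9 control members with 35769 UMIs. The RHS side was 18 members with 52123 UMIs in sub-cluster 2 and 9 members with 21685 UMIs in sub-cluster 6.

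In all, 5746 genes had at least 30 UMIs over the members of both libraries. A gene was called apart if its ratio was at least 1.5-fold in either direction and its interval left out 1. By this rule 384 genes were higher in RHS, 6.68% of those measured, and 608 were lower, 10.6%. The median log2 ratio of all measured genes was -0.07. The split moved with the scaling: trimmed-mean (TMM) scaling gave 506 higher and 464 lower, and holding the sub-cluster mix equal (the same weight for each sub-cluster in both libraries) gave 378 higher and 382 lower, of which 189 and 284 were calls over all members as well. Without sub-cluster 5 there were 393 and 568. Within sub-cluster 1, 159 of 2120 measured genes (7.5%) were higher and 127 (5.99%) lower. Within sub-cluster 2 these were 147 (8.34%) and 184 (10.4%) of 1763, and within sub-cluster 4 they were 119 (7.3%) and 91 (5.58%) of 1630. Sub-cluster 3 had 93 higher and 90 lower of 1025, and sub-cluster 6 had 30 and 20 of 348.

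Among genes with at least 50 UMIs in the higher library and a level there no lower than in all other kept cells, the highest ratios were those of Acta2, Myh11, Cxcl13, Mylk, Ccn2, Mgp, Tagln, Thbs4, Akap12, Olfr1033, Ccl11 and Il33. Mast cell protease genes had ratios as high but lower levels than the other kept cells: 143 of 147 RHS UMIs of Cpa3 lay in 1 cell. Several of the named genes also rested on few cells. Acta2 had 6 UMIs in control and 317 in RHS, and 305 of the 317 lay in 3 cells. Myh11 had 2 and 95 UMIs, in 2 and 4 cells. Members with at least 2 UMIs of Myh11, 3 cells in all, held 90.9% of the RHS members' UMIs of Acta2, Myh11, Mylk, Tagln and Myl9 together. Thbs4 had 56 UMIs in RHS, 42 of them in 1 cell. Acta2 was at 1966 and 2440 CPM in mural cells, and the 9 mural markers outside the rule summed to 174 CPM in control and 307 CPM in RHS members. The part of such cells in these ratios was not tested.

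Mgp, Ccl11, Ccn2, Akap12 and Olfr1033 were spread over more members. Mgp was found in 31 control members at 404 CPM (285 UMIs) and in 74 RHS members at 2188 CPM (1697 UMIs), a ratio of 5.42 (4.78 to 6.16). With an equal sub-cluster mix the ratio was 2.43, and within sub-cluster 1 it was 0.864, 240 UMIs against 379. Sub-cluster 3 held 45 UMIs in 6 control members and 1303 UMIs in 29 RHS members, a ratio of 6.40, so that the Mgp difference lay there and in the mix. Of those 45 control UMIs, 34 lay in 1 member. Ccn2 (a matricellular target of TGF-beta and mechanical signals) had 19 and 126 UMIs in 6 and 30 members, a ratio of 6.03 (3.71 to 10.4) and 2.91 at an equal mix. Of these, 4 and 108 UMIs lay in sub-cluster 3, while sub-cluster 1 held 11 and 10, under the minimum for a ratio. Akap12, a scaffold of protein kinase A, had 25 and 106 UMIs in 17 and 56 members, with 2 and 58 of them in sub-cluster 3. Olfr1033, an odorant receptor gene by its name, had 75 and 293 UMIs, and its ratio was 2.72 within sub-cluster 1 (30 and 149 UMIs) and 9.65 within sub-cluster 3 (3 and 131 UMIs).

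Ccl11 was at 63.8 CPM (46.5 to 85.3) in control members and at 226 CPM (193 to 262) in RHS members, 45 and 175 UMIs, a ratio of 3.54 (2.54 to 5.03). UMIs of it were found in 22 of 175 control members (12.6%) and in 65 of 202 RHS members (32.2%). After thinning every member to 2100 UMIs, which left out 38 control and 55 RHS members, the shares were 7.30% and 22.4%, against 0.0838% and 0% of T cells thinned alike. Ccl11 lay mainly in sub-clusters 1 and 3, at 294 and 395 CPM, and was at 0 UMIs in sub-cluster 2. Within sub-cluster 1 it was higher in RHS (29 and 99 UMIs, a ratio of 1.87), within sub-cluster 3 it was not past the fold (12 and 66 UMIs, 335.5 and 408 CPM), and over all members at an equal mix the ratio was 1.62. Its level in mural cells was 178 and 239 CPM, so that in control it was higher in mural cells than in fibroblasts, and in RHS the 2 intervals overlapped.

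Il33 had 43 UMIs in control and 156 in RHS, in 17 and 41 members, a ratio of 3.30 (2.34 to 4.74). It was no longer past the fold at an equal mix, with a ratio of 1.21, while within sub-cluster 1 the ratio was 1.83 (17 and 57 UMIs). Sub-cluster 3 held more of it, 23 and 94 UMIs, at 643 and 581 CPM, a ratio of 0.903 (0.568 to 1.49). Cxcl13 had 9 UMIs in 5 control members and 133 UMIs in 20 RHS members, a ratio of 13.5 (6.87 to 30.1), and 9.10 within sub-cluster 1, where 8 and 133 of them lay. It was at 0 in both mural and stromal cells.

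**Figure D3:**
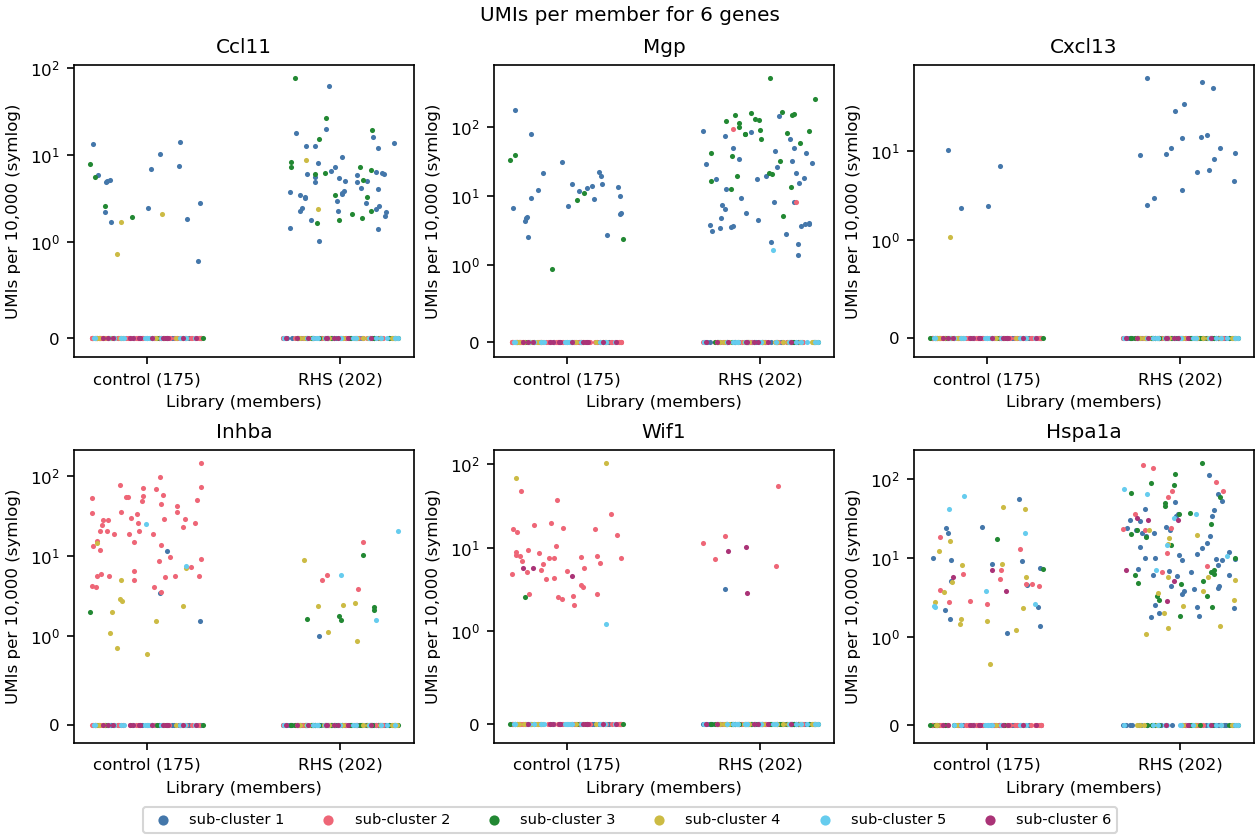
UMIs per 10000 UMIs of each member (y axis, symmetric log scale, linear below 1) for 6 genes in the control (175) and RHS (202) libraries, with points coloured by sub-cluster and spread sideways at random. Ccl11 and Cxcl13 points come from 22 and 5 control and 65 and 20 RHS members, and Inhba points from 72 and 20.

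Among the lowest ratios were those of Corin, Neu2, Gatm, Inhba, Scube3, Rspo1, Clstn2, Wif1, F5, Cacna1g and Arrdc3. Neu2 and Gatm again rested on few cells: 1 control member held 59 of the 60 Neu2 UMIs and 1 held 38 of the 76 Gatm UMIs. The others named were spread over more cells and lay mainly in sub-cluster 2. Inhba was at 735 CPM in control (519 UMIs in 72 members) and 52.9 CPM in RHS (41 UMIs in 20 members), 13.9-fold lower. It remained lower within sub-cluster 2 (458 and 6 UMIs, a ratio of 0.0559) and within sub-cluster 4 (28 and 13 UMIs, a ratio of 0.432). In the neighbouring stromal cells it was at 1788 and 541 CPM, a ratio of 0.303. Corin had 58 UMIs in 24 control members and 0 in RHS, at least 21.2-fold lower when RHS is set at a floor of 3 counts over the library. At a floor of 3 counts the 0 in 202 members allows a share of members with a UMI of up to 1.49%, and the exact (Clopper-Pearson) interval reaches 1.81%. The calls of Corin, Scube3, F5 and Arrdc3 were lost when none of the 6 stromal genes was allowed. Those of Corin and Arrdc3 were also lost after thinning, though no direction turned. Corin and Bmp3 summed to 137 and 54.1 CPM in the neighbouring stromal cells, and to 115 and 11.6 CPM in the members. The part of such stromal cells in these ratios was not tested.

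Wif1, a secreted Wnt inhibitor, had 207 UMIs in 46 control members and 35 UMIs in 9 RHS members, a ratio of 0.154 (0.104 to 0.221). Within sub-cluster 2 its ratio was 1.13 (106 and 28 UMIs), while sub-cluster 4 held 92 UMIs in control and 0 in RHS, and 88 of the control UMIs lay in 1 member. Rspo1, an R-spondin that strengthens Wnt signals, had 90 UMIs in 58 members and 10 UMIs in 8. Within sub-cluster 2 it had 72 and 2 UMIs, a ratio of 0.118. Within sub-cluster 2, F5 had a ratio of 0.753 (68 and 12 UMIs), and Clstn2 had one of 0.544 (47 and 6 UMIs) whose interval, 0.190 to 1.28, held 1. Of the 24 genes with the highest and lowest ratios, 10 overlap another gene in the GENCODE annotation, among them Mylk, Tagln, Ccn2, Corin, Inhba and Rspo1. No source used here says whether the counting used strand, so reads of a gene and its overlapping neighbour may not be told apart.

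**Figure D4:**
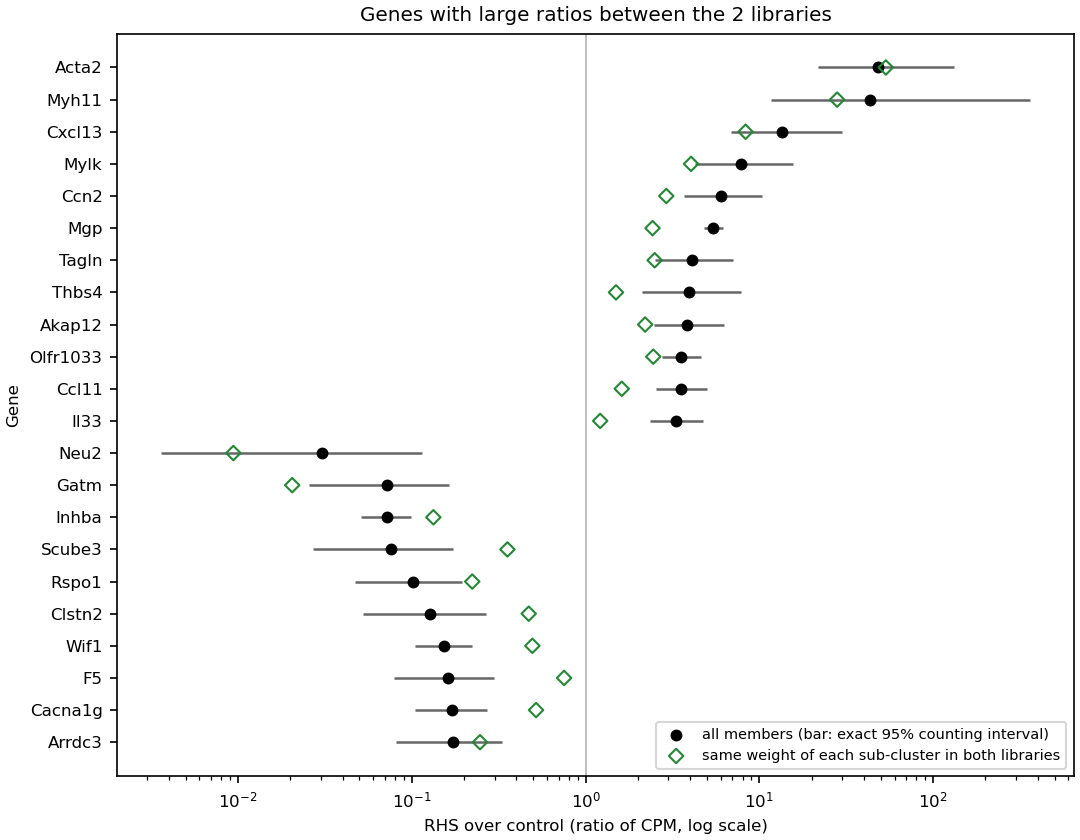
Ratio of RHS over control (x axis, log scale) of genes named for a high or low ratio and detected in both libraries, over all members with exact 95% counting intervals (points and bars) and with the same weight of each sub-cluster in both libraries (diamonds). At equal mix Mgp moves from 5.42 to 2.43, Ccl11 from 3.54 to 1.62 and Il33 from 3.30 to 1.21.

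Most genes of the rule hardly differed in level over all members. Col1a1 was at 31438 CPM in control and 29825 CPM in RHS, Col1a2 had a ratio of 0.993, Col3a1 of 0.961, Lum of 0.984 and Pdgfra, the receptor for platelet-derived growth factor, of 0.988. Dcn (decorin) was the exception, at 4431 CPM and 7329 CPM, a ratio of 1.65 (1.58 to 1.73), which was 1.11 at an equal mix and 1.15 within sub-cluster 1. The rule chose members by these genes, so their levels are not independent of it. Lum, at a like level, was found in 38.86% of control and 64.85% of RHS members, and in 40.15% and 66.67% after thinning. Col1a1 and Col3a1 were both lower within sub-cluster 1, at 0.579 and 0.489, and within sub-cluster 6, at 0.523 and 0.13, and both higher within sub-cluster 2, at 2.80 and 2.12. In sub-cluster 4 their ratios were 0.902 and 0.927.

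Of 12 measured fibrillar and beaded collagens outside the rule, 0 were higher and 2 lower, at a median log2 ratio of -0.11. The lower ones were Col11a1 (67 and 26 UMIs) and Col7a1 (anchoring fibrils, 30 and 15 UMIs). Col6a1, Col6a2 and Col6a3 had ratios of 0.941, 0.912 and 0.887. Of 27 genes that process and cross-link collagen, 4 were higher and 3 lower. Lox (lysyl oxidase) had 116 and 252 UMIs, in 28 and 70 members, a ratio of 1.98 over all members and 3.08 within sub-cluster 1. Ctsk, the collagen-degrading cathepsin K, had a ratio of 1.68 over all members, 3.03 in sub-cluster 2 and 1.53 in sub-cluster 4. Serpinh1 (HSP47, the collagen chaperone) was lower at 0.644 over all members and 0.465 within sub-cluster 1. Its call was lost at an equal mix (0.676) and under TMM scaling, and divided by the ratio in all other kept cells it turned to 1.82. The calls of Lox (1.48), Ctsk (1.48) and Col11a1 (0.861) were lost at an equal mix too, and Ctsk turned to 0.757 when divided by the ratio in other cells.

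Matrix proteases and their inhibitors were counted beside all measured genes, of which 6.68% were higher in RHS and 10.6% lower. Of 27 measured genes of this list, 7 were higher and 1 was lower, at a median log2 ratio of 0.23. The higher ones included Timp3 (a matrix-bound inhibitor), with 123 and 384 UMIs and ratios of 2.84 over all members, 2.51 in sub-cluster 1 and 2.11 in sub-cluster 4, and Mmp11, with 55 and 164 UMIs and ratios of 2.71 over all members and 3.15 in sub-cluster 4. Mmp12, macrophage elastase, had 25 and 148 UMIs in 4 and 7 members and was a leading gene of sub-cluster 5. Its call, 1 of the 7, was lost without sub-cluster 5. Serpine2 (protease nexin 1) was lower, with 330 and 66 UMIs, at 0.182 over all members and 0.331 within sub-cluster 2. Mmp2 and Mmp14, the membrane-bound collagenase, had ratios of 1.36 and 1.19.

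Of 34 glycoprotein and elastic fibre genes 9 were higher and 5 lower, of 17 proteoglycan and hyaluronan genes 1 was higher and 5 lower, and of 14 basement membrane genes 2 were higher and 2 lower. Igfbp7 had a ratio of 1.98 over all members, 0.791 within sub-cluster 1 and 1.21 at an equal mix. Sparc had a ratio of 0.965 over all members, 0.677 in sub-cluster 1 and 2.49 in sub-cluster 2. Has1, a hyaluronan synthase, was higher at 1.93 over all members and 2.75 within sub-cluster 3, but was 1.01 within sub-cluster 1, 0.198 within sub-cluster 2 and 1.18 at an equal mix. Vcan (versican) was lower at 0.309, with 392 and 133 UMIs. Bgn (biglycan) had a ratio of 0.922 over all members but was lower within sub-clusters 1 and 4, at 0.340 and 0.575. Lamc1 (a laminin chain) was higher at 1.87, and Lamb1 and Col15a1 were lower at 0.563 and 0.606, and at an equal mix Lamc1 (1.29) and Lamb1 (0.817) were not past the fold. Fn1 (fibronectin) and Postn (periostin) had ratios of 0.977 and 1.04. Fn1 was lower within sub-cluster 3 at 0.150, and Postn was higher within sub-clusters 1 and 4 at 2.07 and 1.51.

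The lists that separate dermal layers differed in direction. Of 20 measured adventitial and reticular genes 8 were higher and 1 lower, at a median log2 ratio of 0.53. Of 14 papillary dermis genes 1 was higher and 7 lower, at a median of -0.998. At an equal sub-cluster mix these medians were 0.03 and -0.48, and divided by the ratio in all other kept cells they were 0.52 and -0.01. Gsn (gelsolin, an actin-severing protein) had 3359 and 7999 UMIs, a ratio of 2.17 that was 1.05 at an equal mix. Pi16, a marker of adventitial progenitors, had 6 UMIs in 6 members and 32 in 21, a ratio of 4.85 (2.00 to 14.2). Sema3c had 20 and 58 UMIs and a ratio of 2.63 within sub-cluster 1. Ly6a and Ly6c1 had ratios of 1.35 and 1.45 and were not past the fold.

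Among papillary genes Lef1, a transcription factor that carries Wnt signals, had 31 UMIs in 22 control members and 1 UMI in RHS, a ratio of 0.0294 (0.00072 to 0.176). Sfrp2, a secreted frizzled-related protein, ran against the list at 2.06 (46 and 104 UMIs), with 1.77 in sub-cluster 1 and 2.43 in sub-cluster 4. Of 19 Wnt pathway genes 4 were higher and 7 lower, at a median log2 ratio of -0.44. That median was 0.17 at an equal mix, so its direction depended on the mix. Dkk3 was higher in the members (105 and 220 UMIs, a ratio of 1.91), in sub-cluster 1 (1.85) and in sub-cluster 4 (1.71), while in all other kept cells its ratio was 0.367. Of 9 dermal papilla and sheath genes 3 were higher, Myh11 and Mylk among them, and 3 lower. Of 15 myofibroblast genes 4 were higher, all of them contractile or actin-binding genes (Acta2, Tagln, Myl9 and Tpm2), and 1, Runx1, was lower. As given above, 3 RHS members held 90.9% of the RHS members' UMIs of Acta2, Myh11, Mylk, Tagln and Myl9 together. Tagln was found in 15 control and 10 RHS members. These counts therefore do not describe most of the members.

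**Figure D5:**
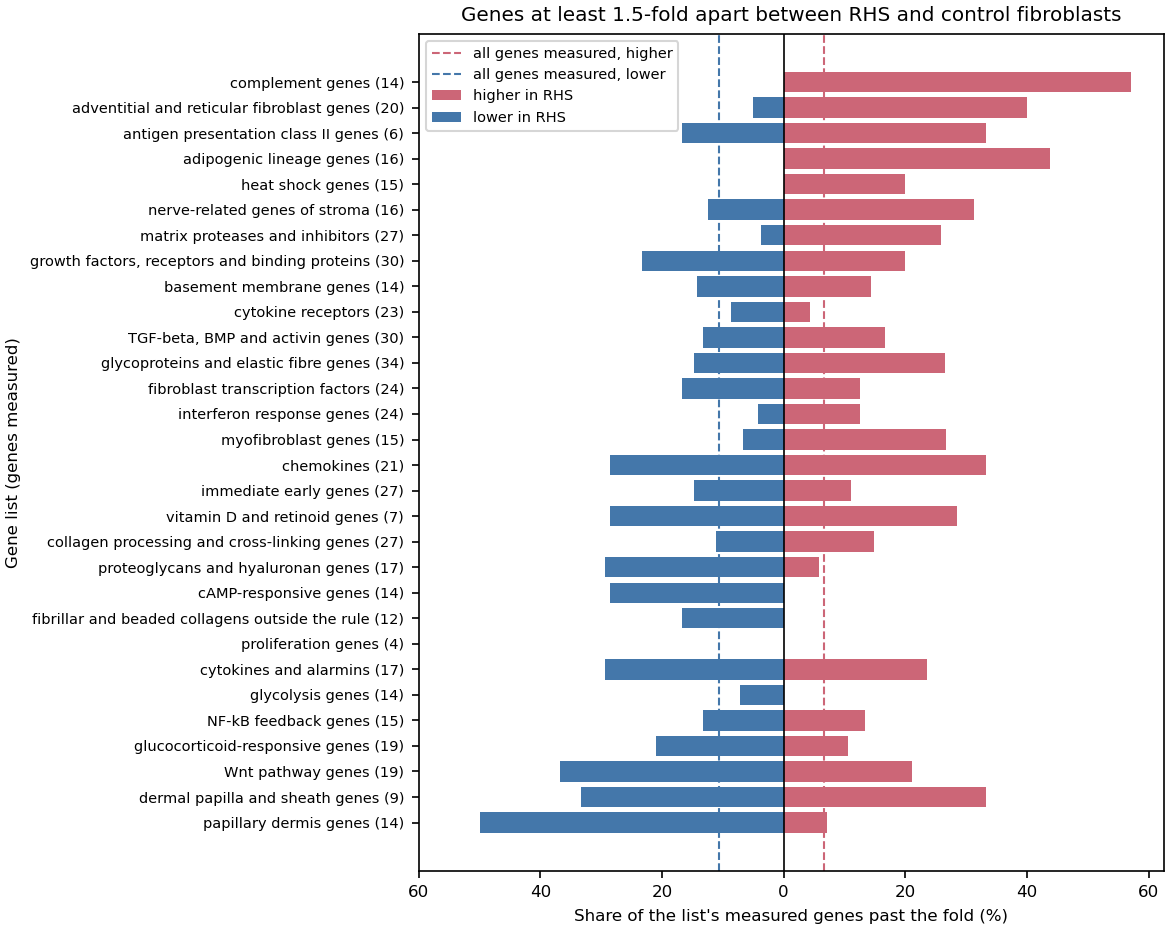
Share of each list's measured genes that were at least 1.5-fold higher (right) or lower (left) in RHS fibroblasts with an interval leaving out 1 (x axis, %), for 30 lists sorted by median ratio, with dashed lines at the shares over all measured genes, 6.68% and 10.6%. Complement genes have 8 of 14 higher and papillary dermis genes 7 of 14 lower.

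Of 14 measured complement genes 8 were higher and 0 lower, at a median log2 ratio of 0.68, which was 0.05 at an equal mix. C3 had 360 UMIs in 39 control members and 1002 UMIs in 107 RHS members, a ratio of 2.53 (2.24 to 2.87). It was higher within sub-cluster 1 (284 and 916 UMIs, a ratio of 1.76) and within sub-cluster 4 (18 and 51 UMIs, a ratio of 2.64). Within sub-cluster 3, where control had 9 members, it was lower (53 and 25 UMIs, 1482 and 154 CPM, a ratio of 0.104). At an equal mix it was not past the fold, at 1.37. Serping1 (the C1 inhibitor), C1s1 and C4b had ratios of 1.70, 1.67 and 1.54 over all members, and of 0.981, 1.03 and 0.971 within sub-cluster 1. C2 had a ratio of 2.07 over all members and 1.12 within sub-cluster 1. Of the complement genes named, C3 was thus past the fold within sub-cluster 1 and the other 4 were not. C4b was higher within sub-cluster 4, at 1.73, and lower within sub-cluster 3, at 0.258.

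Of 21 measured chemokines 7 were higher and 6 lower. Ccl11, Ccl19, Cxcl3, Cxcl10, Cxcl12, Cxcl13 and Cxcl14 were higher, and Ccl3, Ccl4, Ccl5, Ccl6, Ccl8 and Ccl22 were lower. Cxcl12, which retains CXCR4-bearing leukocytes, had 299 UMIs in 44 control members and 666 UMIs in 108 RHS members, a ratio of 2.03 over all members, 1.35 within sub-cluster 1, 0.464 within sub-cluster 3 and 1.19 at an equal mix. Cxcl10, an interferon-induced attractant of T cells, had 62 and 149 UMIs, with 6 and 91 of them in sub-cluster 1. The neutrophil attractant Cxcl1 had a ratio of 1.01 over all members, but it was lower within sub-clusters 1, 2 and 4, at 0.495, 0.180 and 0.374. Ccl2, the monocyte attractant, had a ratio of 0.856 over all members, 0.636 in sub-cluster 1, 0.461 in sub-cluster 4 and 3.05 in sub-cluster 2. Ccl22 had 123 and 2 UMIs, the 123 in 3 members. Ccl3 and Ccl5 turned to 2.03 and 1.81 without members that held at least 3 leukocyte markers.

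Of 17 cytokines and alarmins 4 were higher and 5 lower: Il6, Il33, Il1rn and Spp1 were higher, and Il11, Clcf1, Il1b, Tnf and Ptges lower. Some of these calls depended on the cells included. The Spp1 call was lost without sub-cluster 5 and at an equal mix. Il1b turned to 1.71 without members that held at least 3 leukocyte markers. Il11 turned to 1.19 when divided by the ratio in all other kept cells. Il6 had 251 UMIs in 33 control members and 565 UMIs in 90 RHS members, a ratio of 2.05 (1.76 to 2.39). It was 1.27 within sub-cluster 1, 0.597 within sub-cluster 3 (77 and 208 UMIs) and 0.916 at an equal mix, so its direction depended on the mix. In mural cells Il6 was at 5707 and 6033 CPM, above its level in fibroblasts. Ptgs2 (cyclooxygenase 2) had a ratio of 0.852, and was lower within sub-clusters 1 and 4 at 0.443 and 0.258. Tslp, the epithelial alarmin, had 4 and 6 UMIs in the members and 32 and 32 in mural cells.

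Of 23 cytokine receptors 1 was higher and 2 lower. Il17ra was higher at 1.59 (63 and 110 UMIs), and Tnfrsf12a (the TWEAK receptor) and Il4ra were lower at 0.624 and 0.559. Il4ra, the receptor chain shared by IL-4 and IL-13, had 70 UMIs in 40 control members and 43 UMIs in 36 RHS members. Its ratio was 0.681 in all other kept cells and 0.580 in T cells, and without sub-cluster 5 it was 0.729 in the members, no longer past the fold. Il13ra1 and Osmr had ratios of 0.984 and 1.12.

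Among 30 TGF-beta, BMP and activin genes 5 were higher and 4 lower. Beside Inhba, Ccn1 (a matricellular protein) was lower with 1106 and 374 UMIs, at 0.308 over all members, 0.319 within sub-cluster 2 and 1.09 within sub-cluster 1. In all other kept cells its ratio was 0.540. Tgfbr2, a TGF-beta receptor, was higher at 1.61, but not at an equal mix. Of 30 growth factors, receptors and binding proteins 6 were higher and 7 lower. Mdk (midkine) was lower with 165 and 43 UMIs, and sub-cluster 2 held 133 of them in control and 0 in RHS. Fgfr1 and Fgfr2 were lower at 0.515 and 0.377, and at an equal mix Fgfr1 (0.715) was not past the fold. Igfbp5 had a ratio of 1.31 over all members and 2.41 within sub-cluster 1.

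Stress-related lists were examined because the study concerns stress. With 1 library a group, differences in these lists cannot be told apart from properties of each library, and their cause was not tested. Of 27 immediate early genes 3 were higher and 4 lower, at a median log2 ratio of 0.00. Fos had 383 and 1089 UMIs, a ratio of 2.59 (2.30 to 2.91). Atf3 had 156 and 393 UMIs, a ratio of 2.29, and was higher within sub-clusters 1, 2 and 4, at 2.17, 3.16 and 2.38. Klf4 had 469 and 1090 UMIs, a ratio of 2.12 over all members, 1.95 in sub-cluster 1 and 2.90 in sub-cluster 2. Fos differed among sub-clusters, at 1.07 in sub-cluster 1, 16.2 in sub-cluster 2 (18 RHS members) and 2.65 in sub-cluster 4. Fosl1 was lower at 0.309, and within sub-clusters 1, 2 and 4 at 0.522, 0.301 and 0.396. In the neighbouring stromal cells Fos, Atf3 and Klf4 had ratios of 5.17, 3.17 and 4.69, against 1.09, 1.33 and 1.03 in all other kept cells.

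Of 15 heat shock genes 3 were higher and 0 lower, at a median log2 ratio of 0.39. The higher ones were Hspa1a and Hspa1b, which encode inducible HSP70, and Hspb1. Hspa1a and Hspa1b are near-identical copies on chromosome 17, and reads may be split between them, so their sum is the safer value. Together they had 596 UMIs in control and 1800 in RHS, 844 and 2321 CPM, a ratio of 2.75 (2.50 to 3.02). The sum also had a ratio of 4.67 in the neighbouring stromal cells, 1.46 in mural cells, 1.77 in all other kept cells and 0.950 in T cells. Within sub-clusters Hspa1a had ratios of 1.91, 32.4 and 0.782 in sub-clusters 1, 2 and 4. The RHS side of the 32.4 was 18 members, 1 of which held 44 Hspa1a UMIs.
The promoters of the pair are shown to make the likeness visible, as the 250 bases before the RefSeq start (GRCm38.p6), 5′ to 3′. They lie at chr17:34972157-34972406 (minus strand) for Hspa1a and chr17:34959239-34959488 (minus strand) for Hspa1b. Capitals mark the match to the heat shock element core GAANNTTC, which reads the same on both strands.
Hspa1a: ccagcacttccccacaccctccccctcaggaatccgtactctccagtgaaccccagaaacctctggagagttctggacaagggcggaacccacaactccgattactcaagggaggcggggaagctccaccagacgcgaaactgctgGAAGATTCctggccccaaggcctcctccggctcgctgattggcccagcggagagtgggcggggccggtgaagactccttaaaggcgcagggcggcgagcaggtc
Hspa1b: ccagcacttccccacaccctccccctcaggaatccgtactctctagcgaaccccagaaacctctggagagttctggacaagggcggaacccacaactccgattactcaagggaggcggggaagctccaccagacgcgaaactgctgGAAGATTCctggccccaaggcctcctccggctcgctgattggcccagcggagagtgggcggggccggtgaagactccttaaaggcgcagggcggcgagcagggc
The windows were the same at 247 of 250 bases (98.8%), and each held 1 match, from 104 to 97 bases before the start. The core was present in 6.78% of all 27025 windows. Windows for Ccl11 and Mgp were not in the table used.

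Of 19 glucocorticoid-responsive genes 2 were higher and 4 lower, at a median log2 ratio of -0.25. Hsd11b1, which regenerates active glucocorticoid, had 32 and 97 UMIs in 23 and 49 members, a ratio of 2.76 (1.83 to 4.25). Fkbp5 was higher at 1.70 and Errfi1 lower at 0.584, though within sub-cluster 1 Errfi1 was higher at 1.64, and at an equal mix neither was past the fold (1.17 and 0.837). Mt2 (metallothionein 2) was lower with 1993 and 950 UMIs, at 0.434 over all members and at 0.362, 0.369 and 0.277 within sub-clusters 1, 2 and 4. It was lower elsewhere too, at 0.150 in all other kept cells, 0.298 in mural cells and 0.465 in T cells. Mt1 had a ratio of 1.41. Nr3c1, the glucocorticoid receptor, had 60 and 49 UMIs, a ratio of 0.743 (0.499 to 1.10).

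Adrenergic receptors were close to undetected in these fibroblasts. None of the 9 reached 30 UMIs. Adra2a, for example, had 3 and 5 UMIs and Adra1b 2 and 3. No difference in them was detectable at this depth. Of 14 cAMP-responsive genes 0 were higher and 4 lower, Nr4a1 among them at 0.539 (604 and 358 UMIs), and 0.697 at an equal mix. Of 16 nerve-related genes 5 were higher and 2 lower. Sema3c, Bdnf (12 and 34 UMIs), Nrp1 and Slit3 were among the higher ones, and Robo1 and Robo2 lower. Nrp1, a semaphorin receptor, ran the other way within sub-cluster 1, at 0.607. At an equal mix Nrp1, Robo1 and Robo2 were not past the fold, at 1.10, 0.861 and 0.760.

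Of 16 adipogenic lineage genes 7 were higher and 0 lower, at a median log2 ratio of 0.42. Apod (apolipoprotein D) had 2163 and 4963 UMIs, a ratio of 2.09 over all members and 1.00 within sub-cluster 1. Fabp4, a fatty acid carrier of adipocytes and endothelium, had 40 and 177 UMIs, with 10 and 139 of them in sub-cluster 1, and Adipoq had 35 UMIs in 1 RHS member. Of 7 vitamin D and retinoid genes 2 were higher and 2 lower. Vdr, the receptor for vitamin D and the target of MC903, had 40 UMIs in 24 control members and 14 UMIs in 12 RHS members, a ratio of 0.319 (0.160 to 0.598) that was 0.753 within sub-cluster 2 and 0.815 at an equal mix. Aldh1a1, a retinoic acid-producing enzyme, had 42 and 135 UMIs, a ratio of 2.92 over all members and 1.66 within sub-cluster 1.

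In the remaining lists, 3 of 24 interferon response genes were higher and 1 lower, 2 of 15 NF-kB feedback genes were higher and 2 lower, and 3 of 24 fibroblast transcription factors were higher and 4 lower. Beta-2 microglobulin (B2m) had a ratio of 1.45 over all members and 1.75 within sub-cluster 4, and H2-K1 was higher within sub-clusters 1 and 4 at 1.53 and 1.78. Rela, an NF-kB subunit, was lower at 0.349, and at 0.359 in all other kept cells. En1, the transcription factor of back dermis fibroblasts, was lower with 96 and 41 UMIs, at 0.389. Of 6 class II antigen presentation genes 2 were higher and 1 lower, and these genes summed to 28187 CPM in sub-cluster 5 against 195 to 529 CPM in the others. Of 4 proliferation genes 0 were higher or lower, and of 14 glycolysis genes 0 were higher and 1 lower.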

How the data were processed

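The deposited skin matrices give, for every gene in every barcode, an unnormalized UMI count, per the file headers and their whole-number values. The program that made the skin counts is not named in the sources read for this work. Cell Ranger, R 3.6.0, Seurat 5.1.0 and the GRCm39 build appear in the submitters' processing notes without a stated role. UMIs of the members were summed per library and scaled to CPM, with exact Poisson 95% intervals for levels, exact (Clopper-Pearson) intervals for shares and exact conditional binomial intervals for ratios. Genes with at least 30 counts over both libraries were measured, and a gene at 0 was set at a floor of 3 counts for a bound. With 1 library a group no test across samples exists. UMIs shared by PCR or by 1 cell are not independent, so intervals cover counting error only.

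Neighbouring stromal cells met the same rule but held at least 2 of the 6 stromal genes. Mural cells held Rgs5 and at least 1 of 4 other pericyte markers, and T cells at least 2 of 4 T cell markers. Sub-clusters came from scanpy 1.11.5 (1000 variable genes without the rule's genes, 15 principal components, 15 neighbours, Leiden resolution 0.5). The software was Python 3.11.15, numpy 2.4.6, scipy 1.17.1 and pandas 2.3.3. Promoter windows came from RefSeq (GRCm38.p6), where 6 of 8 genes looked up were matched.

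The named genes were the 12 highest and 12 lowest ratios among genes that reached 50 counts in whichever library was higher, at a level no lower than that of other kept cells. From each of 31 lists came the 3 highest levels and up to 3 of the highest and lowest ratios past the fold. The 20 identity genes, the rule's genes, 6 leading genes a sub-cluster and a short list of cytokine, matrix and receptor genes were added. The ratio ranking skipped genes of mitochondria, ribosomes, haemoglobin and antigen receptors, as well as Xist, Tsix, Y-linked and predicted genes. Results of some genes that met these rules are not reported here. Other genes given with values were chosen after their values were seen. The members, lists and 17 marker classes were chosen with earlier results of these data known. Leaving out leukocyte-marker cells or sub-cluster 5, holding the sub-cluster mix equal and the values within sub-clusters were added after seeing the data.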

Additional observations from a re-analysis of the deposited data

How the results depend on the processing

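No paired analysis was possible because each group was 1 library, and no replicate could be left out. The ratio of shares was 0.787 with no limit on the 6 stromal genes. The number of genes higher in RHS was 597 when divided by the ratio in all other kept cells, 578 with equal weight per cell, 190 with at least 100 counts and 194 with a fold of 2. The number lower was 364 with none of the 6 stromal genes allowed, 966 with no limit on them, 400 when divided by the ratio in all other cells, 244 with at least 100 counts, 299 with a fold of 2 and 382 with the sub-cluster mix held equal. Fewer genes or a stricter fold account for the values at 100 counts and at a fold of 2, and for the others the cause was not tested.

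Named genes were followed under 18 settings, which left out the fold of 2 and the other minimum counts. Of 142 past the fold, 33 held in all of these where measured (18 higher, 15 lower), and 34 turned in at least 1. Plod1 (1.965) and Dkk3 (1.907) are among the 33 but are under a fold of 2. Dividing by the ratio in other cells turned Col7a1 (2.017), Lamb1 (1.441), Efemp2 (1.504), Mfap2 (1.216), Ctsk (0.7574), Serpinh1 (1.815), Plod2 (1.019), Il11 (1.194), Tnfrsf12a (1.249), Fgfr1 (1.018), Mt2 (2.898), Vcam1 (0.9798), Osr2 (0.9275) and Robo1 (1.071). Admitting cells with 2 of the 6 markers turned Acta2 (0.9847), Tagln (0.5109), Myl9 (0.4638), Adipoq (0.9662), Fabp4 (0.6476) and Cxcl10 (0.5487). Asking for 4 markers turned Myh11 (0.4137), Tagln (0.4137) and H2-DMa (1.931). Allowing 1 UMI of the excluded genes turned Mmp12 (0.6352), Ccl5 (1.412), Ccl3 (1.223) and Il1b (1.138). Leaving out members with 3 or more leukocyte markers turned Cxcl3 (0.957), Ccl5 (1.808), Ccl3 (2.034), Il1b (1.707) and H2-DMb1 (0.723), and leaving out sub-cluster 5 turned Ccl5 (2.094) and H2-DMb1 (0.8976). Thinning turned Fbln7 (0.8388), Sfrp4 (1.017) and Il11 (1.087). The equal mix turned Il6 (0.9158), Ccn5 (0.9801), C4b (0.9728) and C1s1 (0.9655). The cause was not tested. Depth limits genes under 30 counts, the adrenergic receptors and Tslp among them.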
